A study of Mus musculus with 24 samples.

Results

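The genes whose response to the HSP90 inhibitor HSP990 differed between Hsf1-/- and wild type mice were sought in RNA-seq counts of quadriceps femoris muscle. For each gene the change from vehicle to HSP990 in Hsf1-/- mice was compared with the same change in wild type mice, as a difference of 2 responses on the log2 scale, so that a negative value means a smaller rise, or a larger fall, without HSF1. The comparison used 8 of the 24 libraries of the series, 2 mice in each of 4 groups. It called 58 of 13754 genes tested (0.422%) at a Benjamini-Hochberg adjusted p below 0.05, 45 lower (0.327%) and 13 higher (0.0945%). Of these, 44 were also called higher in wild type mice after HSP990 and are referred to as genes needing HSF1. A further 7 were called higher in Hsf1-/- mice after HSP990 and not in wild type mice, and are referred to as genes rising without HSF1. The other 7 called genes belong to neither class.

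The wild type mice were 12 weeks old and the Hsf1-/- mice, which carry no functional copy of Hsf1, were 8 weeks old, so genotype and age cannot be told apart. The labels give all of them the same background, a cross of CBA with C57BL/6. HSP990 was given by mouth at 12 mg/kg and muscle was taken 4 h later. The vehicle mice received saline according to the labels, whereas the drug was suspended in methyl cellulose and saline, so the suspending agent changed together with the drug. The study also held wild type and Hsf1-/- mice (the latter 10 weeks old) given a heat shock (HS, 15 min at 41.5 °C) or its control (21 min at 36.9 °C) under anaesthesia, and 12-week-old R6/2 mice, which carry Hsf1 and a transgene of mutant human huntingtin exon 1 under the human huntingtin promoter, given HSP990 or vehicle. These HS and R6/2 libraries entered the choice of genes through the filter on low counts, the scaling and the estimate of the spread, which were made over all 24 libraries, and not through the contrast. Nothing in the labels says whether mice of a group shared a litter or a cage, so the p-values measure the spread between these mice.

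HSF1 is the transcription factor of the heat shock response. In unstressed cells it is held inactive in complexes that include the chaperones HSP90 and HSP70. When misfolded protein draws these chaperones away, or when a drug blocks HSP90, HSF1 forms trimers and binds heat shock elements, inverted repeats of the unit NGAAN, in the promoters of chaperone genes. The products hold unfolded proteins in solution (HSPB1), fold them with ATP (HSP70 with its DNAJ partners, the chaperonins) or mature particular clients such as kinases, steroid receptors and, in muscle, myosin (HSP90 with its co-chaperones). ATF4 is the transcription factor of a separate programme, the integrated stress response, which is switched on by amino acid shortage, unfolded protein in the endoplasmic reticulum or mitochondrial stress and raises genes for amino acid uptake, amino acid synthesis and tRNA charging.

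Short promoter stretches are printed here 5′ to 3′ on the strand of the gene, with the motif in capitals. They show what the elements of the 2 programmes look like in some genes needing HSF1 and in Fgf21 and Jdp2. The latter 2 were called higher in Hsf1-/- mice after HSP990 but were not called in the difference. The stretches were read from RefSeq promoter windows of GRCm38.p6 (250 bases before to 50 after a start) and placed in mm9, the build of the counts, by an exact match. In the HSP70 and HSPB1 genes the capitals mark a 2-unit heat shock element (GAA and its complement TTC, in either order, with 2 bases of any kind between them), in the stretch before Hspe1, which lies close to the start of the gene Hspd1 on the other strand, overlapping 3-unit elements (3 such units in alternation with the same spacing, which contain the 2-unit form), and in Fgf21 and Jdp2 the ATF4 composite element (TGATGCAA or its complement TTGCATCA).
Hspa1a, chr17:35109162-35109221 (- strand): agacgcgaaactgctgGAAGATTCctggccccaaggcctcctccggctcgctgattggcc
Hspa1b, chr17:35096244-35096303 (- strand): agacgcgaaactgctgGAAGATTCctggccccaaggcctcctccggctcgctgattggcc
Hspb1, chr5:136363659-136363718 (+ strand): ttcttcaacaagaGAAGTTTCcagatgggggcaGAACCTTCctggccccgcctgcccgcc
Hspe1, chr1:55144897-55144926 (+ strand): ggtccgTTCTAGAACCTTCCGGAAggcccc
Fgf21, chr7:52870961-52871020 (- strand): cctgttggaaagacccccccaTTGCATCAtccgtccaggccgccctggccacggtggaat
Jdp2, chr12:86940296-86940355 (+ strand): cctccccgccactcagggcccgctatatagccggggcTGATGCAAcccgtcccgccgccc

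The stretches before Hspa1a and Hspa1b were identical over their 60 bases, with the element 104 bases before the start. In Hspb1 the elements began 117 and 97 bases before the start, in Hspe1 89 and 84, in Fgf21 139 and in Jdp2 33. Of the 44 genes needing HSF1, 36 had a window, and 3 of these (8.33%; Hspd1, Hspe1 and Hsph1) held a 3-unit heat shock element on either strand, beside 64 of 10838 tested genes with a window (0.591%). The windows of Hspd1 and Hspe1 overlap, and their elements are the same bases read on opposite strands, so the same stretch is counted for both genes. The 2-unit element, searched for after the values had been seen, was in 13 of the 36 (36.1%) and in 14.0% of all tested genes with a window. No gene rising without HSF1 held either form, of 6 with a window, and 1 of the 6, Slc1a4, held the ATF4 composite element. Of all 23 genes called higher in Hsf1-/- mice after HSP990, 20 had a window and 4 held the ATF4 element (20%; Aars, Fgf21, Jdp2 and Slc1a4), beside 0.683% of all tested genes. The printed stretch of Hspe1 overlaps an exon of Hspd1 on the other strand, and the others lie before the start of their gene and in no annotated exon. A match is a description of these letters and not of binding.

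The 8 libraries held 22450177 to 46599238 counts, the highest being the Hsf1-/- HSP990 mouse of replicate 1. That library stood apart from its partner: the chi-square per degree of freedom between the mice of a group was 79.1 in this group and 30.3 to 33.7 in the other 3, and its summed level of 7 adipocyte markers was 2212 CPM (counts scaled to library size with TMM factors) beside 284 to 1119 CPM in the other 7 libraries. Skeletal muscle markers summed to 176200 to 236400 CPM over the 8 libraries. Hsf1 itself (gene identifier 15499; chromosome 15, 76307865 to 76331402 in mm9) was read at 64.4 and 65.3 CPM in the wild type vehicle mice, 52.9 and 56.6 in the wild type HSP990 mice, 28.7 and 27.5 in the Hsf1-/- vehicle mice and 21.1 and 27.6 in the Hsf1-/- HSP990 mice. All Hsf1-/- mice lay below all wild type mice, and the transcript was lower (log2 vehicle difference -1.21, adjusted p = 0.0005) and not absent. The counts cover the whole gene, and which part of the transcript remained was not analysed here. Its level did not change beyond the threshold after HSP990 in either genotype, and the difference of responses was 0.03 with a 95% interval of -0.35 to 0.41.

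In wild type mice HSP990 raised 199 genes (1.45%) and lowered 56 (0.407%), and in Hsf1-/- mice it raised 23 (0.167%) and lowered 7 (0.0509%). Of the 199 raised genes, 44 (22.1%) were called lower in the difference itself and the other 155 were not called. These 155 are not shown to need HSF1 or to be free of it. In the 44 genes the wild type rise ranged from 1.68-fold to 159-fold, with a median of 3.68-fold. In all 44 both wild type HSP990 mice lay above the other 6 mice (8.5% of all tested genes did), which follows from how the genes were chosen and is no further evidence. The Hsf1-/- change in the same genes had a median log2 value of 0.03, was above 0 in 23 of 44 and was called in none (4 higher and 4 lower at an unadjusted p below 0.05). This change is part of the difference that chose the genes, which favours low values of it. In whole muscle a change in the number of cells of a type and a change in the RNA per cell cannot be told apart. In 36 of the 44 the 95% interval of the Hsf1-/- change lay within a factor of 2 in either direction. The number of calls moved with single mice: the wild type response gave 59 calls in place of 255 without wild type vehicle replicate 2, and the Hsf1-/- response 146 in place of 30 without Hsf1-/- HSP990 replicate 2. The plot of the 2 responses shows the 44 genes spread along the wild type axis close to the zero line of the Hsf1-/- axis.

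**Figure D1:**
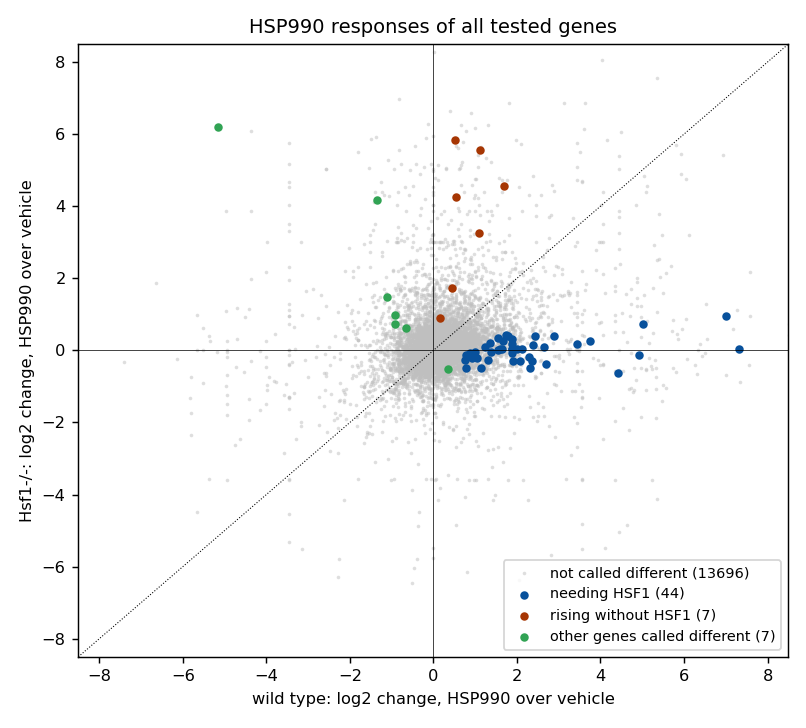
Log2 change from vehicle to HSP990 of each tested gene in wild type mice (x axis) and in Hsf1-/- mice (y axis), from the fit over 24 libraries; the dotted line marks equal responses, and 3 genes lie outside the axes. The 44 genes needing HSF1 lie along the x axis, and the 7 genes rising without HSF1 lie above the dotted line at Hsf1-/- changes of 0.89 to 5.84.

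Of the 44 genes, 2 that encode HSP70 showed the largest differences. Hspa1b (gene identifier 15511; chromosome 17, 35093381 to 35096183 in mm9), which encodes the stress-inducible HSP70, was read at 21.4 and 16.0 CPM in the wild type vehicle mice, 3161 and 2787 in the wild type HSP990 mice, 4.14 and 2.66 in the Hsf1-/- vehicle mice and 3.19 and 3.85 in the Hsf1-/- HSP990 mice. The wild type HSP990 mice were thus far above the other 6, and the Hsf1-/- HSP990 mice lay between their vehicle mice (log2 difference -7.27, standard error 0.73, adjusted p = 4.8e-05; every adjusted p is that of the quasi-likelihood test of edgeR, adjusted after Benjamini and Hochberg). Hspa1a (193740; chromosome 17, 35106144 to 35109069), its near-identical neighbour with the same product, was read at 28.6 and 16.2 CPM in the wild type vehicle mice, 2950.3 and 2777 in the wild type HSP990 mice, 3.77 and 3.36 in the Hsf1-/- vehicle mice and 4.93 and 9.15 in the Hsf1-/- HSP990 mice (log2 difference -6.04, standard error 0.78, adjusted p = 0.00051). Since these 2 genes differ in few bases, the split of reads between them is uncertain. Hspa1l (15482), the third HSP70 gene of this cluster, whose start lies 579 bases from that of Hspa1a, rose 3.71-fold in wild type mice, and in Hsf1-/- mice the HSP990 level was 1.24 times the vehicle level, which did not pass (log2 difference -1.58, standard error 0.30, adjusted p = 0.019).

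Nucleotide exchange factors let HSP70 release its client. Hsph1 (15505), the HSP110 exchange factor, was read at 157 and 159 CPM in the wild type vehicle mice, 779 and 605 in the wild type HSP990 mice, 53.3 and 62.8 in the Hsf1-/- vehicle mice and 62.2 and 57.9 in the Hsf1-/- HSP990 mice (log2 difference -2.08, standard error 0.26, adjusted p = 0.00035). Hspa4l (18415), a relative of Hsph1, was read at 16.8 and 13.6 CPM in the wild type vehicle mice, 116 and 74.4 in the wild type HSP990 mice, 5.74 and 6.77 in the Hsf1-/- vehicle mice and 7.15 and 6.04 in the Hsf1-/- HSP990 mice (log2 difference -2.57, standard error 0.29, adjusted p = 0.00011). In both genes the Hsf1-/- mice already lay below the wild type mice with vehicle (log2 vehicle difference -1.45 and -1.28, adjusted p = 0.0017 and 0.018). Bag3 (29810), which joins HSP70 to HSPB8 for the removal of damaged sarcomere proteins, was read at 351 and 292 CPM in the wild type vehicle mice, 1682 and 1666 in the wild type HSP990 mice, 187 and 200 in the Hsf1-/- vehicle mice and 188 and 238 in the Hsf1-/- HSP990 mice (log2 difference -2.24, standard error 0.24, adjusted p = 8.2e-05). Of 15 tested genes on the list of HSP70 and its exchange factors, 6 were called lower and 0 higher, with a median log2 difference of -0.68 beside 0.0017 over all tested genes. Hspa8, the constitutive HSP70 (chosen after its values were seen), was not called and varied widely between mice of a group, at 108 and 400.4 CPM in the wild type HSP990 mice and 149 and 22.3 in the Hsf1-/- vehicle mice.

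DNAJ proteins deliver clients to HSP70. Dnajb1 (81489; chromosome 8, 86132074 to 86135801), its main partner in the stress response, was read at 9.40 and 11.8 CPM in the wild type vehicle mice, 327 and 315 in the wild type HSP990 mice, 8.00 and 9.13 in the Hsf1-/- vehicle mice and 8.80 and 6.96 in the Hsf1-/- HSP990 mice (log2 difference -5.03, standard error 0.45, adjusted p = 1.1e-05). Dnaja1 (15502; chromosome 4, 40669183 to 40684182), another cytosolic partner, was read at 3.97 and 3.30 CPM in the wild type vehicle mice, 54.5 and 43.5 in the wild type HSP990 mice, 2.92 and 2.28 in the Hsf1-/- vehicle mice and 3.13 and 3.07 in the Hsf1-/- HSP990 mice (log2 difference -3.50, standard error 0.27, adjusted p = 2.4e-06). No mouse of the other 3 groups overlapped with the wild type HSP990 mice in either gene. On the list of cytosolic DNAJ proteins these were the only 2 of 14 tested genes called. Dnaja4 and Dnajb4, which were called higher in wild type mice (adjusted p = 0.0016 and 0.0023), had log2 differences of -1.74 and -1.42 that did not pass (adjusted p = 0.13 and 0.31).

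The target of the drug, HSP90, and its partners form a further group. Hsp90aa1 (15519; chromosome 12, 111928815 to 111940938), the inducible HSP90, was read at 13.4 and 12.7 CPM in the wild type vehicle mice, 464 and 386 in the wild type HSP990 mice, 6.45 and 7.02 in the Hsf1-/- vehicle mice and 13.0 and 9.46 in the Hsf1-/- HSP990 mice, a 32.5-fold rise in wild type mice (log2 difference -4.28, standard error 0.36, adjusted p = 4.5e-06). Hsp90ab1 (15516), the constitutive HSP90 and the more highly read of the pair, was read at 1947 and 1736 CPM in the wild type vehicle mice, 3972 and 3654 in the wild type HSP990 mice, 1169 and 1093 in the Hsf1-/- vehicle mice and 948 and 1004 in the Hsf1-/- HSP990 mice (log2 difference -1.26, standard error 0.19, adjusted p = 0.0035). Both Hsf1-/- groups lay below the wild type vehicle mice in Hsp90ab1, and its vehicle difference was -0.70 (adjusted p = 0.077). Hsp90aa1 has 2 near-identical copies elsewhere in the genome, so its level is uncertain. By qPCR of the same muscle the study reported no change of Hsp90aa1 after the drug. The reason for this disagreement with the counts was not tested.

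Of the co-chaperones, Stip1 (20867), which bridges HSP70 and HSP90, was read at 139 and 143 CPM in the wild type vehicle mice, 469.6 and 412 in the wild type HSP990 mice, 87.1 and 81.5 in the Hsf1-/- vehicle mice and 81.3 and 91.4 in the Hsf1-/- HSP990 mice (log2 difference -1.61, standard error 0.19, adjusted p = 0.00015). Unc45b (217012; chromosome 11, 82724052 to 82756905), the muscle co-chaperone that folds the myosin head, was read at 589 and 600.3 CPM in the wild type vehicle mice, 2454 and 2535 in the wild type HSP990 mice, 529 and 451 in the Hsf1-/- vehicle mice and 395 and 410.2 in the Hsf1-/- HSP990 mice (log2 difference -2.35, standard error 0.18, adjusted p = 2.4e-06). Ahsa2 and Ahsa1, activators of the HSP90 ATPase, differed by -1.85 and -0.95 (adjusted p = 0.00022 and 0.0055), and Fkbp4, the immunophilin of steroid receptor complexes, by -0.96 (adjusted p = 0.0046). On the list of HSP90 and its co-chaperones 7 of 19 tested genes were called lower and 0 higher (median -0.41). St13, a co-chaperone that passes clients from HSP70 to HSP90 and stood on no list, also differed (log2 difference -1.14, adjusted p = 0.018). Chordc1 and Ptges3, also of this list, had values of -1.30 and -0.95 and did not pass (adjusted p = 0.25 and 0.11; Ahsa1, Fkbp4, St13, Chordc1 and Ptges3 fall outside the rule for naming and were chosen after their values were seen).

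**Figure D2:**
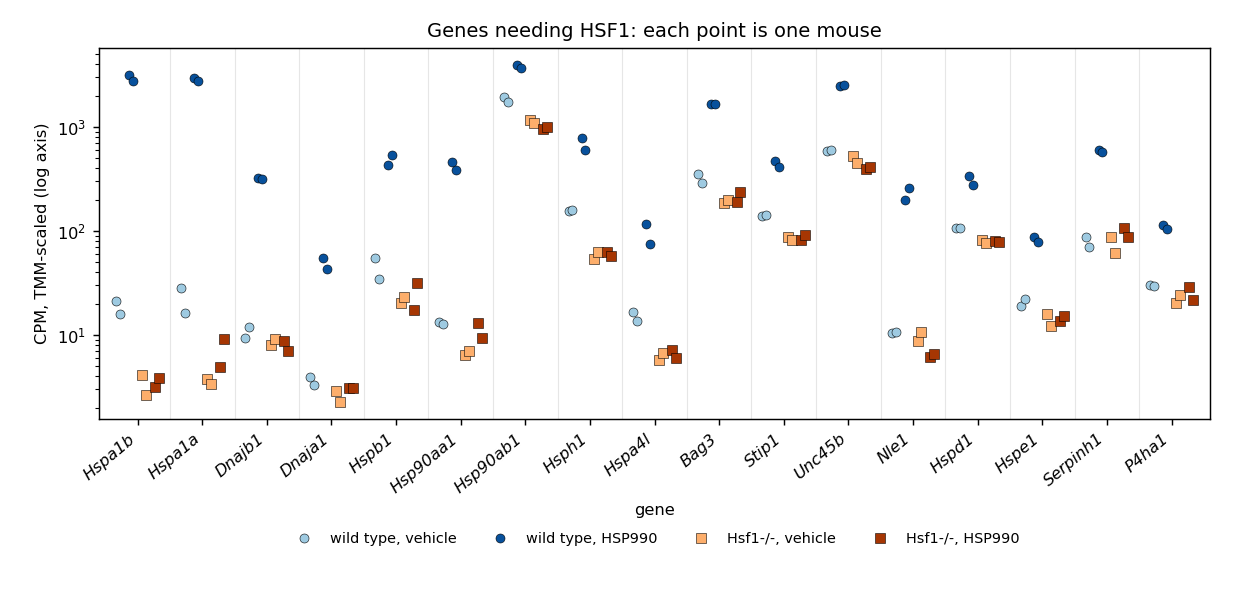
Level of 17 genes needing HSF1 in each of the 8 mice, as CPM after TMM scaling on a log axis; each point is 1 mouse, circles are wild type and squares Hsf1-/-, pale for vehicle and dark for HSP990. The 2 wild type HSP990 mice lie above the other 6 in each gene shown, from a level of 43.5 CPM (Dnaja1) to 3972 CPM (Hsp90ab1).

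Hspb1 (15507; chromosome 5, 136363789 to 136365433), the small heat shock protein that holds unfolded protein and binds the sarcomere, was read at 55.6 and 34.5 CPM in the wild type vehicle mice, 435 and 536 in the wild type HSP990 mice, 20.2 and 23.2 in the Hsf1-/- vehicle mice and 17.3 and 32.0 in the Hsf1-/- HSP990 mice (log2 difference -3.26, standard error 0.57, adjusted p = 0.01). It was the only called member of 6 tested small heat shock proteins. Hspb8, the partner of BAG3, and Cryab, the alpha-B crystallin that binds the sarcomere, had values of -1.24 and -1.11 and did not pass (adjusted p = 0.14 and 0.74). Cryab was read at 841 and 779 CPM in wild type and 333 and 344 CPM in Hsf1-/- vehicle mice.

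Among the chaperonins, the mitochondrial pair Hspd1 (15510) and Hspe1 (15528), which form a barrel and its lid and are read from starts 111 bases apart on opposite strands, differed by -1.54 and -1.97 (standard errors 0.17 and 0.27, adjusted p = 0.00011 and 0.0011). Hspd1 was read at 108 and 107 CPM in the wild type vehicle mice, 342 and 279.7 in the wild type HSP990 mice, 82.4 and 76.6 in the Hsf1-/- vehicle mice and 79.9 and 79.0 in the Hsf1-/- HSP990 mice. The wild type HSP990 mice lay above the other 6, and all Hsf1-/- mice lay below the wild type vehicle mice (log2 vehicle difference -0.43, adjusted p = 0.27). Hspb1, Hspd1 and Hspe1 each have 1 near-identical copy elsewhere in the genome, so their levels are uncertain. Hspd1 and Hspe1 were the only called genes of 12 tested mitochondrial chaperones and proteases, whose median was 0.25: the other 10 had values above 0. Of the 8 subunits of the cytosolic chaperonin CCT, which folds actin and tubulin, 1 was called, Cct7 (log2 difference -1.01, adjusted p = 0.019), and all 8 had values below 0 (median -0.45). Cct6a stood just outside the threshold (-0.66, adjusted p = 0.064).

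A further group acts on collagen in the endoplasmic reticulum. Serpinh1 (12406), the collagen chaperone HSP47, was read at 87.2 and 70.9 CPM in the wild type vehicle mice, 599 and 581 in the wild type HSP990 mice, 86.6 and 60.9 in the Hsf1-/- vehicle mice and 107 and 87.6 in the Hsf1-/- HSP990 mice (log2 difference -2.50, standard error 0.38, adjusted p = 0.0032). P4ha1 (18451), the catalytic subunit of prolyl 4-hydroxylase, was read at 30.4 and 29.5 CPM in the wild type vehicle mice, 115 and 105 in the wild type HSP990 mice, 20.2 and 24.3 in the Hsf1-/- vehicle mice and 29.1 and 21.5 in the Hsf1-/- HSP990 mice (log2 difference -1.69, standard error 0.22, adjusted p = 0.00049). Plod1, a lysyl hydroxylase, differed by -1.41 (adjusted p = 0.022). The list of endoplasmic reticulum chaperones and the unfolded protein response had no other called member: 1 of 21, with a median of -0.09. Hspa5, the general chaperone of this compartment (chosen after its values were seen), had a value of 0.19 (95% interval -0.25 to 0.64). P4ha1 and Plod1 were the 2 called of 30 tested extracellular matrix genes. In that list 29 of 30 had values below 0, with a median of -0.76, a median wild type response of 0.89 and an Hsf1-/- response of 0.10. Summed fibroblast markers, 3 of 5 of which are also on the matrix list, were at 618 and 641 CPM in wild type vehicle, 876 and 886 in wild type HSP990, 761 and 509.8 in Hsf1-/- vehicle and 476.5 and 856 in Hsf1-/- HSP990 mice, and their part in the matrix values was not tested.

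Of the 44 genes needing HSF1, 20 (45.5%) stood on a chaperone list, which is 21.1% of the 95 tested chaperone genes, and 22 (50%) stood on no pathway list. The largest difference among these 22 was that of Nle1 (217011; chromosome 11, 82714270 to 82721913), a factor of ribosome assembly in the nucleus. It was read at 10.6 and 10.7 CPM in the wild type vehicle mice, 200.5 and 257 in the wild type HSP990 mice, 8.85 and 10.7 in the Hsf1-/- vehicle mice and 6.10 and 6.57 in the Hsf1-/- HSP990 mice (log2 difference -5.06, standard error 0.32, adjusted p = 2.4e-07). Nle1 and Unc45b lie head to head, with starts 2139 bases apart, and both were called. Swt1 (66875), an RNA endoribonuclease, was read at 10.8 and 13.4 CPM in the wild type vehicle mice, 73.0 and 50.7 in the wild type HSP990 mice, 11.3 and 11 in the Hsf1-/- vehicle mice and 10.7 and 7.53 in the Hsf1-/- HSP990 mice (log2 difference -2.63, standard error 0.28, adjusted p = 7.3e-05). Ankrd34a (545554), an ankyrin repeat protein, was read at 1.61 and 1.47 CPM in the wild type vehicle mice, 10.8 and 9.07 in the wild type HSP990 mice, 1.69 and 1.54 in the Hsf1-/- vehicle mice and 1.35 and 1.09 in the Hsf1-/- HSP990 mice (log2 difference -3.07, standard error 0.42, adjusted p = 0.0011). Dll1, a ligand of Notch, and Phlda1, which acts in growth factor signalling, rose 4.97-fold and 4.85-fold in wild type mice and differed by -2.79 and -2.46 (adjusted p = 0.031 and 0.019).

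Other genes needing HSF1, named here after their values were seen, act in varied places. Atp2c1, the calcium and manganese pump of the Golgi, differed by -2.22 (adjusted p = 0.0087) and Slc5a3, the carrier of the osmolyte myo-inositol, by -1.40 (adjusted p = 0.0046). Slc5a3 overlaps Mrps6 on the same strand, so reads of these 2 genes may be mixed. Dedd2, a death effector domain protein, and Gprasp1, which sorts receptors to lysosomes, differed by -1.95 and -1.58 (adjusted p = 0.00022 and 8.2e-05). Sphk2, a sphingosine kinase, rose 1.70-fold in wild type mice and its Hsf1-/- mice read lower with the drug (8.62 and 9.34 CPM with vehicle, 6.50 and 6.17 with HSP990; log2 difference -1.27, adjusted p = 0.0043). The smallest difference among the 44 was that of Scamp3, a membrane trafficking protein, at -0.91 (adjusted p = 0.015).

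The level before the drug also differed in some of these genes. In 24 of the 44 both Hsf1-/- vehicle mice lay below both wild type vehicle mice, beside 20.9% of all tested genes, and in 3 the vehicle difference was called lower (Hsph1, Hspa4l and Stip1; 0.08% of all tested genes were). The vehicle mice enter the difference of responses as well, so this count is not independent of how the genes were chosen. In 28 of the 44 both Hsf1-/- HSP990 mice lay below both wild type vehicle mice. The share of all tested genes that did so was not computed. These mice too enter the contrast that chose the genes, so the count is a description and no further evidence. With the drug, the Hsf1-/- response amounted to -65.2% to 24.7% of the wild type response on the log2 scale (median 1.02%). The genes were chosen by the difference of these same responses, which favours low percentages, so these values are a description.

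Some of these calls rested on single mice. Left out in turn, no mouse removed the call of Hspa1b, Hspa1a, Dnajb1, Dnaja1, Hsp90aa1, Hsp90ab1, Hsph1, Hspa4l, Bag3, Stip1, Unc45b, Nle1, Hspd1, Hspe1, Serpinh1, P4ha1, Swt1 or Ankrd34a, and in all 26 of the 44 genes were called without each of the 8 mice. Hspb1 was not called without Hsf1-/- HSP990 replicate 1 or without wild type vehicle replicate 2 (highest adjusted p = 0.097), and Ahsa1 not without Hsf1-/- HSP990 replicate 1 (adjusted p = 0.056). Hspa1l, Dll1, Phlda1 and Plod1 were each lost without 6 of the 8 mice, with highest adjusted p-values of 0.13, 0.23, 0.12 and 0.18, and Cct7 and St13 without 5 (0.12 and 0.11). Atp2c1 was lost without wild type vehicle replicate 2 or wild type HSP990 replicate 1 (highest adjusted p = 0.059) and Scamp3 without 5 of the 8 (0.12). Wild type HSP990 replicate 1 was among the mice whose loss removed the call in each of Hspa1l, Plod1, Dll1, Phlda1, Cct7, St13, Atp2c1 and Scamp3, and so was wild type vehicle replicate 2. A fit on the 8 libraries alone called 21 of the 44 and no others of this class.

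The 7 genes rising without HSF1 form a different group. Of these, 4 stand on the list of the ATF4 stress response. Trib3 (228775; chromosome 2, 152163158 to 152169768), a pseudokinase that restrains AKT and ATF4, was read at 2.77 and 2.37 CPM in the wild type vehicle mice, 4.29 and 3.08 in the wild type HSP990 mice, 1.04 and 2.57 in the Hsf1-/- vehicle mice and 65.6 and 143 in the Hsf1-/- HSP990 mice (log2 difference 5.32, standard error 0.60, adjusted p = 0.00011). Sesn2 (230784; chromosome 4, 132047947 to 132066416), a leucine sensor that restrains mTORC1, was read at 5.05 and 5.39 CPM in the wild type vehicle mice, 9.33 and 6.06 in the wild type HSP990 mice, 4.10 and 3.78 in the Hsf1-/- vehicle mice and 57.2 and 92.4 in the Hsf1-/- HSP990 mice (log2 difference 3.69, standard error 0.38, adjusted p = 5.4e-05). In both genes the 2 Hsf1-/- HSP990 mice were above the other 6, and the wild type responses were 0.51 and 0.55 on the log2 scale and did not pass (adjusted p = 0.66 and 0.38). The Hsf1-/- rise was 57.1-fold for Trib3 and 19.0-fold for Sesn2.

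Amino acid transport and one-carbon metabolism supplied a further 3. Slc7a5 (20539; chromosome 8, 124405052 to 124431594), the carrier of large neutral amino acids, was read at 0.745 and 0.776 CPM in the wild type vehicle mice, 1.45 and 1.83 in the wild type HSP990 mice, 0.282 and 0.374 in the Hsf1-/- vehicle mice and 12.8 and 18.7 in the Hsf1-/- HSP990 mice (log2 difference 4.45, standard error 0.61, adjusted p = 0.0011). Slc1a4 (55963; chromosome 11, 20202183 to 20232716), a carrier of alanine, serine and cysteine that stood on no list, was read at 0.786 and 1.40 CPM in the wild type vehicle mice, 3.89 and 3.22 in the wild type HSP990 mice, 0.989 and 1.70 in the Hsf1-/- vehicle mice and 23.8 and 40.9 in the Hsf1-/- HSP990 mice (log2 difference 2.88, standard error 0.60, adjusted p = 0.045). Mthfd2 (17768; chromosome 6, 83255685 to 83267600), a mitochondrial enzyme of the folate cycle, was read at 6.13 and 5.20 CPM in the wild type vehicle mice, 12.6 and 11.5 in the wild type HSP990 mice, 4.94 and 7.14 in the Hsf1-/- vehicle mice and 51.6 and 65.1 in the Hsf1-/- HSP990 mice (log2 difference 2.18, standard error 0.42, adjusted p = 0.022). In all 7 genes of the class both wild type HSP990 mice were also above both wild type vehicle mice. The share of all tested genes that did so was not computed. Of the 7 wild type responses, 4 had an unadjusted p below 0.05, beside 13.2% of all tested genes in either direction. On the log2 scale the 7 wild type responses ranged from 0.15 (Xpot) to 1.69 (Slc1a4, adjusted p = 0.058), with 1.11 for Slc7a5 and 1.09 for Mthfd2 (adjusted p = 0.22 and 0.073). A rise limited to Hsf1-/- mice is therefore not shown for the class.

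The remaining 2 had smaller changes. Xpot (73192), which exports tRNA from the nucleus, was read at 38.7 and 37.7 CPM in the wild type vehicle mice, 44.8 and 39.8 in the wild type HSP990 mice, 39.0 and 38.9 in the Hsf1-/- vehicle mice and 71.6 and 73.1 in the Hsf1-/- HSP990 mice (log2 difference 0.75, standard error 0.15, adjusted p = 0.033), and Arl14ep (212772), a partner of the small GTPase ARL14, at 15.3 and 15.5 CPM in the wild type vehicle mice, 23.8 and 18.4 in the wild type HSP990 mice, 16.7 and 14.0 in the Hsf1-/- vehicle mice and 47.3 and 55.3 in the Hsf1-/- HSP990 mice (log2 difference 1.29, standard error 0.21, adjusted p = 0.0061). In all 7 genes both Hsf1-/- HSP990 mice were above the other 6 mice (5.02% of all tested genes were), which again follows from the choice. The Hsf1-/- HSP990 mouse of replicate 2 was the higher of the pair in each of the 7, and replicate 1 was the library with the high adipocyte markers.

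Trib3, Sesn2 and Slc7a5 were called without each of the 8 mice (highest adjusted p = 0.0018, 0.00072 and 0.012). Arl14ep was lost without Hsf1-/- vehicle replicate 2 (adjusted p = 0.053), Slc1a4 and Mthfd2 without 6 of the 8 mice (highest adjusted p = 0.43 and 0.15), and Xpot without any of them (lowest adjusted p = 0.05, highest 0.21). Without Hsf1-/- HSP990 replicate 2 the class held 23 genes, 4 of them among these 7, and without replicate 1 of that group it held 7, with 6 of these. A fit of the difference on the 8 libraries alone called 3 of the 7, Trib3, Sesn2 and Slc7a5. The Hsf1-/- response, fitted on the libraries of its own groups alone, called 0 genes. No gene could therefore meet the definition of the class in that setting.

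**Figure D3:**
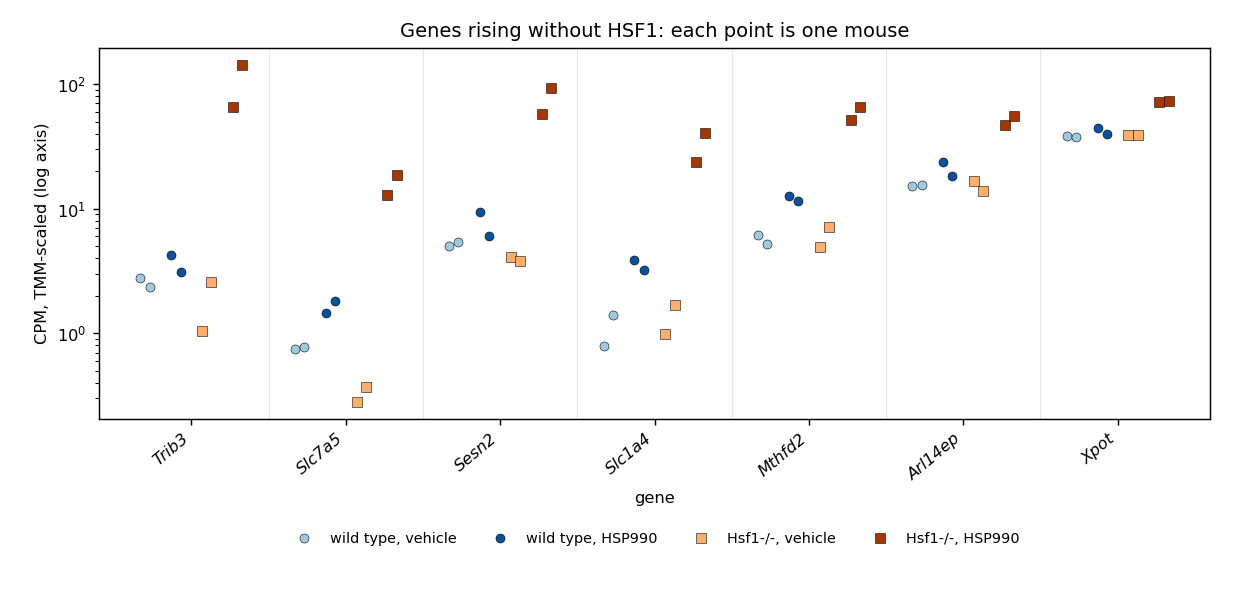
Level of the 7 genes rising without HSF1 in each of the 8 mice, as CPM after TMM scaling on a log axis; each point is 1 mouse, circles are wild type and squares Hsf1-/-, pale for vehicle and dark for HSP990. Both Hsf1-/- HSP990 mice lie above the other 6 in every gene shown, from 12.8 CPM (Slc7a5) to 143 CPM (Trib3).

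The ATF4 list gives the wider view of this group. Of its 30 tested genes 4 were called higher in the difference and 0 lower, 26 had values above 0 (50.2% of all tested genes did), and the median was 0.88 beside 0.0017 over all tested genes. In Hsf1-/- mice 9 of the 30 were called higher after HSP990 and the median response was 1.08, while in wild type mice 0 were called and the median was 0.37. Ddit3, the C/EBP factor CHOP, was read at 24.5 and 15.4 CPM in the wild type vehicle mice, 36.7 and 31 in the wild type HSP990 mice, 8.95 and 11 in the Hsf1-/- vehicle mice and 44.6 and 92.8 in the Hsf1-/- HSP990 mice, but its difference did not pass (2.02, adjusted p = 0.26). Psat1, an enzyme of serine synthesis, and Slc7a1, the carrier of cationic amino acids, were likewise called higher in Hsf1-/- mice (4.95-fold and 9.42-fold) without passing in the difference (log2 1.92 and 1.90, adjusted p = 0.22 and 0.24). Atf4 itself had a value of 0.51 (adjusted p = 0.75), and its activity is set mainly by translation, which RNA counts do not show. Ddit3, Psat1, Slc7a1, Atf4, Fgf21 and Jdp2 are named after their values were seen. Fgf21, a hormone of the stress response, was at 0 CPM in both wild type vehicle mice and 0.200 and 0 CPM in the wild type HSP990 mice, 0 and 0.166 in the Hsf1-/- vehicle mice and 4.90 and 7.27 in the Hsf1-/- HSP990 mice. Jdp2, a partner of AP-1 and ATF factors, was at 4.19 and 6.14 CPM in the Hsf1-/- vehicle mice and 16.0 and 20.6 with HSP990. In wild type mice Jdp2 was at 6.75 and 6.55 CPM with vehicle and 8.93 and 8.48 with HSP990. The difference did not pass for Fgf21 (1.56, 95% interval -10.1 to 13.2, adjusted p = 0.98) or for Jdp2 (1.43, adjusted p = 0.24). Cebpg, which pairs with ATF4, stood at 1.02 (adjusted p = 0.085). Of 20 tested cytosolic aminoacyl-tRNA synthetases, which charge tRNA, 0 were called in the difference (median 0.17) and 2, Aars and Lars, were called higher in Hsf1-/- mice (log2 0.86 and 0.70). At an unadjusted p below 0.05 the difference covered 948 of the 13754 genes (6.89%).

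Of the 7 other called genes, 6 were called higher and 1, Smarcd2, lower. Asb15, a muscle ubiquitin ligase subunit, was read at 86.1 and 98.5 CPM in the wild type vehicle mice, 50.4 and 46.8 in the wild type HSP990 mice, 24.6 and 16.0 in the Hsf1-/- vehicle mice and 34.8 and 44.7 in the Hsf1-/- HSP990 mice (log2 difference 1.89, standard error 0.33, adjusted p = 0.0095). The vehicle groups already differed in Asb15 (log2 -2.18, adjusted p = 0.0005). Pcp4l1, a relative of a calmodulin-binding peptide of Purkinje cells, was read at 80.0 and 56.3 CPM in the wild type vehicle mice, 33.6 and 29.8 in the wild type HSP990 mice, 30.1 and 23.5 in the Hsf1-/- vehicle mice and 99.3 and 51.1 in the Hsf1-/- HSP990 mice (log2 difference 2.59, standard error 0.48, adjusted p = 0.019). Mid1ip1, which promotes fatty acid synthesis, Tmem8b and the chromatin remodelling subunit Smarcd2 differed by 1.67, 1.27 and -0.86 (adjusted p = 0.038, 0.034 and 0.013). Irx5 and Tmem28 were below 1 CPM in every one of the 8 mice and rest on few counts, and no fold is given for them.

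Leaving out a mouse removed the call of Asb15 in 3 of 8 cases (Hsf1-/- vehicle, wild type vehicle and wild type HSP990 replicate 2), of Smarcd2 in 4 and of Pcp4l1, Mid1ip1 and Tmem8b in 6 or 7, with highest adjusted p-values of 0.065, 0.093, 0.12, 0.22 and 0.25. Just inside the threshold stood Irx5, Slc1a4 and Zfp36l1 (adjusted p = 0.039, 0.045 and 0.0497), and just outside it Irf9, Arhgap31 and Cct6a (0.06, 0.064 and 0.064).

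A set of 8 genes was called in the same direction in both genotypes, named here after their values were seen. Lpar6, a receptor of lysophosphatidic acid, rose by 1.37 in wild type and 1.91 in Hsf1-/- mice on the log2 scale, and Siah2, a ubiquitin ligase, by 1.10 and 1.13. Their differences were 0.55 (95% interval -0.30 to 1.40) and 0.04 (-0.62 to 0.69). Timp4, an inhibitor of matrix proteases, was read at 52.1 and 55.9 CPM in the wild type vehicle mice, 7.09 and 11.2 in the wild type HSP990 mice, 59.7 and 57.7 in the Hsf1-/- vehicle mice and 10.9 and 13.9 in the Hsf1-/- HSP990 mice. It was lower with HSP990 in every mouse of both genotypes (difference 0.30, 95% interval -0.66 to 1.26). Klf2, a factor of the endothelium, Lrrc30, Adgrg1, Slc9a3r2 and Slc43a3 were also called lower in both. Their differences lay between -0.89 and -0.10, with 95% intervals from -1.997 at the lowest to 0.74 at the highest, so that equal responses in the 2 genotypes are not shown.

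The plot of the gene lists shows where the 58 calls fall. The 21 pathway lists held 26 of them, each counted once. Target genes of the glucocorticoid receptor, a client of HSP90, had a median wild type response of -0.95 and an Hsf1-/- response of -0.52, and 0 of 19 were called in the difference. Fkbp5, a classical target, was read at 98.4 and 372 CPM in the wild type vehicle mice, 22.2 and 17.1 in the wild type HSP990 mice, 76.4 and 299 in the Hsf1-/- vehicle mice and 61.2 and 99.1 in the Hsf1-/- HSP990 mice and varied widely between vehicle mice (log2 difference 2.35, adjusted p = 0.58). Slow fibre sarcomere genes had the highest median of the 21 lists (1.47, 0 of 9 called), together with a median vehicle difference of -2.59. Myh7, the slow myosin, was read at 119 and 88.1 CPM in the wild type vehicle mice, 167 and 5.54 in the wild type HSP990 mice, 10.5 and 3.53 in the Hsf1-/- vehicle mice and 1.44 and 66.5 in the Hsf1-/- HSP990 mice, so its level varied with the mouse as much as with the group. Immediate early genes had a median of -0.62 with 0 of 21 called. Proteasome subunits (31 tested), ubiquitin and selective autophagy genes (12), NRF2 targets (13), NF-kB targets and cytokines (14), core clock genes (19), muscle atrophy genes (9), fast fibre sarcomere genes (12) and heat shock factors (5) had no called member, and their medians lay between -0.30 and 0.27.

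**Figure D4:**
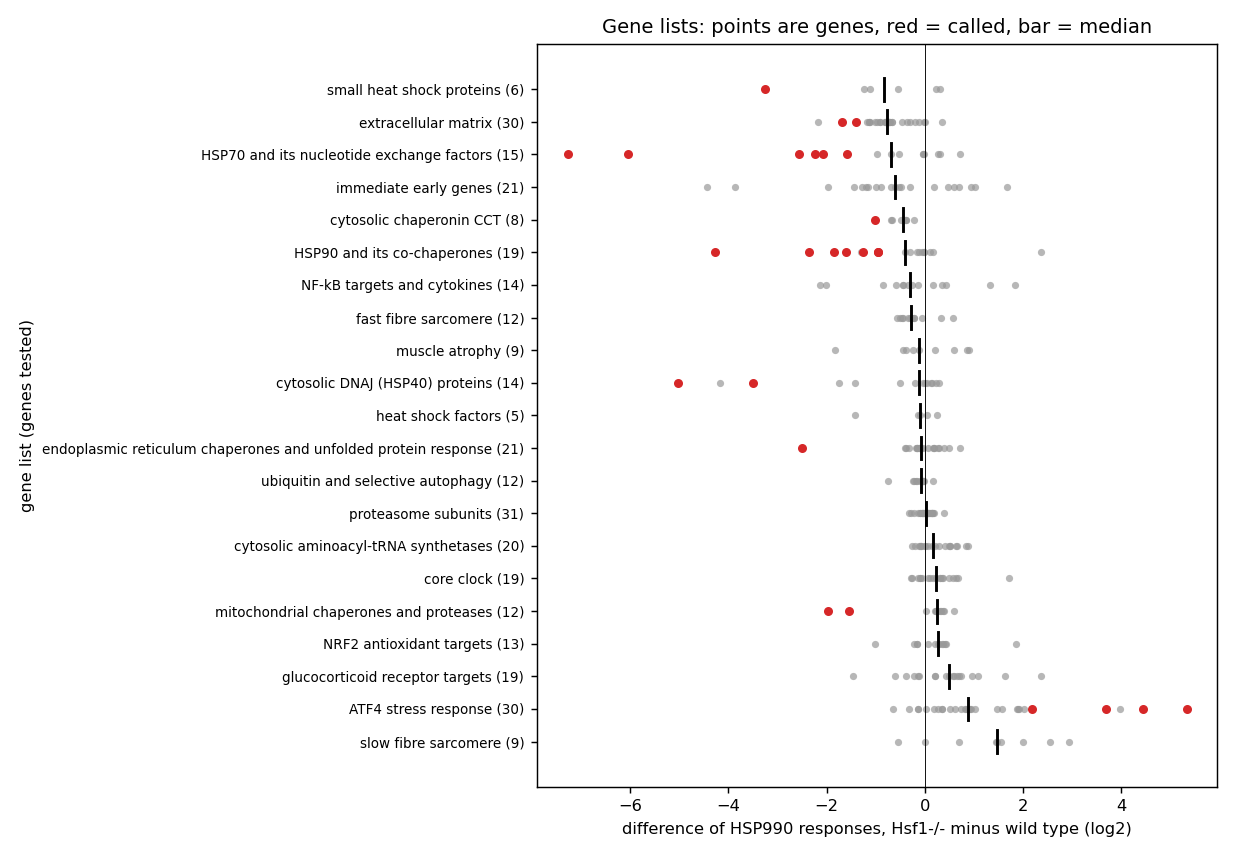
Difference of HSP990 responses (Hsf1-/- minus wild type, log2) of the genes of 21 lists, with the number of genes tested in brackets; each point is 1 gene, red points passed the threshold and the black bar is the median of the list. Red points lie left of 0 in the chaperone and matrix lists and right of 0 in the ATF4 list.

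The HS libraries, which share no mouse with the comparison above, allowed the 44 genes needing HSF1 to be read again. There, 22 genes (0.16%) were called lower in the difference of HS responses and 0 higher (511 at an unadjusted p below 0.05 in either direction, 3.72%). Of the 44, 18 (40.9%) were among them, which is 81.8% of the 22. In wild type mice 33 of the 44 were called higher after HS, beside 1.59% of all tested genes. In Hsf1-/- mice 0 were, but only 1 of all tested genes was (0.00727%), so this 0 does not set the 44 apart. Their median log2 change after HS in Hsf1-/- mice was -0.053, beside 0.0025 over all tested genes. The difference of HS responses was below 0 in 43 of the 44, while 51.7% of all tested genes lay above 0. Its median was -1.25 beside 0.012 over all tested genes. The wild type HS and control mice had a summed Y-linked level of 0 CPM and the Hsf1-/- ones of 186 to 229.9 CPM, so genotype and sex cannot be told apart in the HS libraries. Without wild type control replicate 1 the HS difference gave 10 calls in place of 22. The exception to the direction was Sphk2 (0.48, adjusted p = 1). Hspa1b was read at 1.84 and 4.89 CPM in wild type control, 853 and 858 in wild type HS, 1.27 and 1.18 in Hsf1-/- control and 1.21 and 0.914 in Hsf1-/- HS mice (log2 difference -8.18, adjusted p = 0.00036). Dnaja1 was read at 4.45 and 4.78, 29.1 and 34.3, 2.27 and 2.17 and 1.79 and 1.83 CPM in the same groups (-3.08, adjusted p = 5.2e-05). Unc45b, Bag3, Hspd1, Stip1 and Nle1 were called as well (log2 -1.25, -1.96, -1.51, -1.44 and -2.45).

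Other genes needing HSF1 were not called with HS. Dnajb1 was read at 11.2 and 8.17 CPM in wild type control and 25.6 and 61.9 in wild type HS mice and at 8.56 and 6.52 and 8.83 and 8.70 in the Hsf1-/- groups, the 2 wild type HS mice differing widely (log2 -1.97, adjusted p = 0.15). Dll1 was at 8.00 and 7.84 CPM in wild type control and 5.07 and 7.40 in wild type HS mice, and Swt1 at 10.3 and 10.4 and 17.7 and 16.6, against 10.8 and 13.4 with vehicle and 73.0 and 50.7 with HSP990. Whether the 2 treatments differed in their dependence was tested as the difference of the 2 differences, a contrast added after the data had been seen. It called 0 genes (860 at an unadjusted p below 0.05, 6.25%). Its values were below 0 in 40 of the 44, that is, HSP990 gave the larger difference, with a median of -0.59. The contrast contains the values that chose the genes, so these figures are a description. The lowest was that of Dnajb1 (-3.07, 95% interval -4.37 to -1.76, adjusted p = 0.21).

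The 7 genes rising without HSF1 gave 0 calls in the difference of HS responses. Of all 13754 tested genes 0 were called higher there, so this count does not set the class apart. Their values ranged from 0.00024 to 1.27 (median 0.21). After HS, 6 of the 7 were higher in Hsf1-/- mice at an unadjusted p below 0.05, beside 684 of all tested genes (median log2 change 0.94). In wild type mice 2 of the 7 were, beside 879 of all tested genes (median 0.21). After adjustment 0 of the 7 were called in Hsf1-/- mice. In Hsf1-/- mice after HS, Trib3 was read at 4.47 and 2.54 CPM beside 2.07 and 1.56 in control mice, and Slc7a5 at 2.53 and 2.50 beside 0.398 and 0.662, and Slc7a5 was called higher in wild type mice after HS (0.360 and 0.821 CPM in control and 1.90 and 3.20 in HS mice, adjusted p = 0.013).

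R6/2 mice, which have HSF1, raised most of the genes needing HSF1 when given HSP990. Of the 44, 35 (79.5%) were called higher, beside 0.473% of all tested genes, and all 44 had values above 0, as did 51.7% of all tested genes (median 1.14 beside 0.011). Without R6/2 vehicle replicate 2 the R6/2 response gave 50 calls in either direction in place of 197, and over the mice left out in turn 27 to 33 of the 44 were called. Their response was 23.6% to 111% of the wild type response on the log2 scale, with a median of 66.8%. Hspa1b was read at 8.46 and 4.78 CPM with vehicle and 739 and 932 with HSP990 (log2 6.97, adjusted p = 2.7e-06), Unc45b at 338 and 381 and 915 and 887 (1.33, adjusted p = 2.6e-05) and Nle1 at 8.56 and 7.85 and 46.9 and 66.0 (2.78, adjusted p = 2.7e-06). Dll1 and Phlda1 were among the 9 not called (0.98 and 0.71, adjusted p = 0.37 and 0.48). None of the 7 genes rising without HSF1 was called higher in R6/2 mice (values -0.73 to 0.65): Trib3 was read at 1.90 and 1.77 CPM with vehicle and 2.43 and 1.71 with HSP990, and Sesn2 at 5.28 and 5.39 and 6.77 and 9.91. The matrix list, whose wild type median was 0.89, had a median of -0.01 in R6/2 mice, and the median of the ATF4 list was 0.05.

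**Figure D5:**
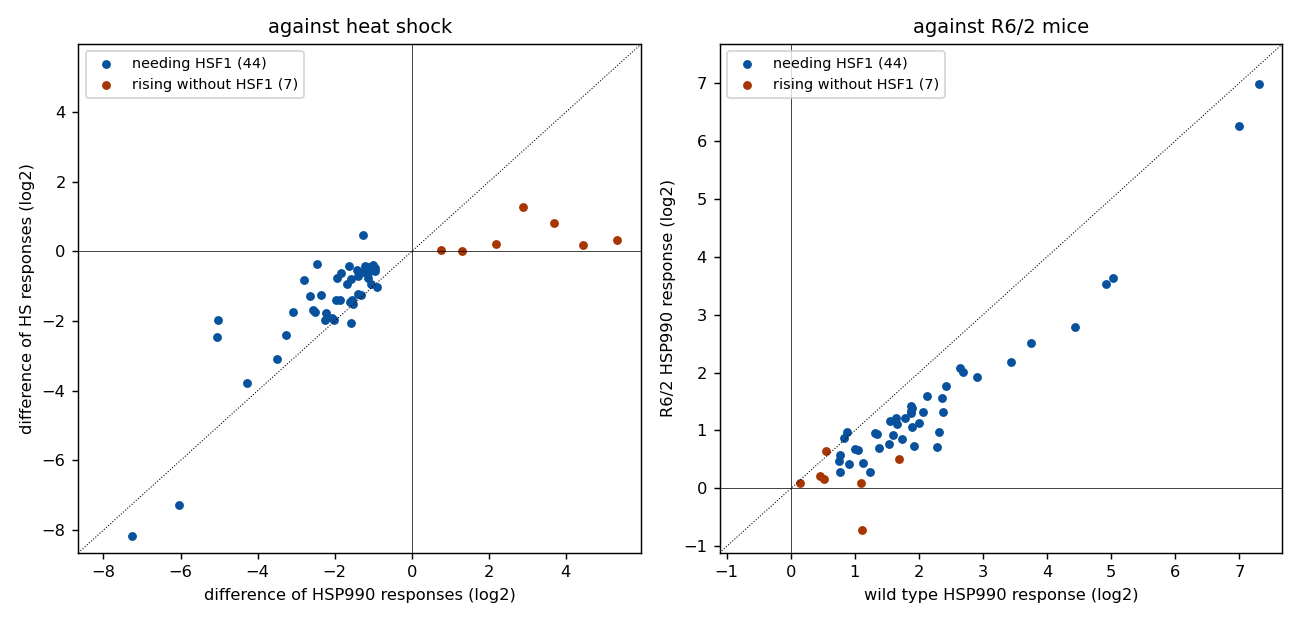
Left, difference of HSP990 responses against difference of HS responses (Hsf1-/- minus wild type, log2); right, wild type against R6/2 HSP990 response (log2). Points are the 44 genes needing HSF1 (blue) and the 7 rising without HSF1 (brown), and dotted lines mark equal values. On the left 43 of the 44 blue points lie below 0 on the y axis, and on the right all 44 lie above 0.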

How the data were processed

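Quadriceps femoris RNA of 24 mice (12 groups of 2) was sequenced from strand-specific paired-end libraries. The authors deposited raw counts per gene, made from reads mapped to mm9 with Bowtie. The counting program, the gene annotation and the versions are not given in the sources used here. Counts over a whole gene cannot separate near-identical copies. Of 18669 genes, 13754 that reached 2 counts in 10 or more libraries were kept, scaled by TMM and fitted with edgeR 4.0.16 in R 4.3.3 by its quasi-likelihood method, with 1 mean per group and 12 residual degrees of freedom over all 24 libraries. Genes were called at a Benjamini-Hochberg adjusted p below 0.05. Standard errors and 95% intervals come from the F statistic. CPM values are TMM-scaled, and not divided by gene length. With 2 mice against 2 the smallest exact permutation p is 0.333, so no single-gene permutation test was run.

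Genes were placed in mm9 by symbol, or by Ensembl identifier or synonym where the symbol was missing or not unique. They were matched to GRCm38.p6 promoter windows by gene identifier, and the printed stretches were taken by symbol. Near-identical transcript copies were sought with minimap2 2.31-r1302. The fit was tested on simulated data with planted log2 differences of 1, 2 and 4 in either direction in well-counted genes. It recovered 31.8%, 83.6% and 95.5% of them, with 8 false among 149 calls. A difference near 1 that did not pass is therefore not shown to be absent. Alternatives were RLE factors, library size alone, other filters on low counts, the replicate number as a block, fits on the groups of a contrast alone, DESeq2 1.42.0 and each mouse left out in turn. The members and the gene lists were chosen with earlier results of these data known. Named are Hsf1 and the heat shock protein genes that the study measured by qPCR, the 15 genes needing HSF1 with the lowest and the 10 rising without HSF1 with the highest log2 difference, the 5 lowest and 5 highest of the other called genes, the 5 members of each list with the lowest unadjusted p, and the 3 genes on either side of the threshold. A mean of 1 CPM was required of the genes taken by their log2 difference.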

Additional observations from a re-analysis of the deposited data

Results flagged for a closer look

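Both classes were set apart by the test of the difference between the 2 genotypes under the same contrast, HSP990 against vehicle. It put 44 genes in the class needing HSF1 and 7 in the class rising without HSF1. The genotypes also differed in age, 8 weeks in Hsf1-/- and 12 weeks in wild type mice, and the part of age in either count cannot be told apart from that of genotype.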

How the results depend on the processing

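RLE factors, library size alone, no filter and edgeR's own filter gave 35 to 44 genes needing HSF1 and 5 to 7 rising without it. No named gene that was called in the main fit or in an alternative had opposite signs in the 2. Changes of sign in named genes called in neither were not counted. The fit on the groups of a contrast alone, which has fewer samples to estimate the spread, called 24 genes in the difference of HSP990 responses, 158 in the wild type response, 0 in the Hsf1-/- response by edgeR (858 at an unadjusted p below 0.05), 44 in the difference of HS responses and 8 in the R6/2 response. It left 21 genes needing HSF1, 0 rising without it (3 genes were called higher in the difference), 7 of the genes needing HSF1 higher in R6/2 mice, and the 3-unit element in 16.7% of the genes needing HSF1 that had a window. DESeq2 on all 24 libraries called 116, 547, 141, 39 and 372 genes in the same order and 105 in the vehicle difference, with 74 genes needing HSF1 (all 44 shared) and 20 rising without it (5 of the 7 shared), 29 of the former lower in the difference of HS responses, and the element in 5.26% of those with a window. DESeq2 on the 8 libraries called 128 genes in the difference. The cause of these shifts between tools was not tested. In place of the 3-unit element, the 2-unit element was in 36.1% of the genes needing HSF1 by the main edgeR fit that had a window.

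Leaving out each mouse in turn, the difference of HSP990 responses gave 35 to 73 calls, the genes needing HSF1 28 to 40, those rising without it 4 to 23, the wild type response 59 to 168, the Hsf1-/- response 11 to 146, the difference of HS responses 10 to 16, the R6/2 response 50 to 228, the vehicle difference 4 to 9, calls on the gene lists 21 to 25, genes needing HSF1 lower in the difference of HS responses 10 to 19 and higher in R6/2 mice 27 to 33, and the share of genes needing HSF1 with a window that held the element 9.09 to 12%.

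Across 11119 genes, which are not independent, mice with the same replicate number deviated together between wild type vehicle, wild type HSP990 and Hsf1-/- vehicle groups (r of 0.13 to 0.25), while the Hsf1-/- HSP990 mice deviated the opposite way from each of these (r of -0.24 to -0.11). Since not every pair of groups deviated together, the numbers were not taken to pair the mice. With the replicate block the difference of HSP990 responses gave 54 calls, the wild type response 222, the Hsf1-/- response 24, the difference of HS responses 20, the R6/2 response 176, the vehicle difference 9, genes needing HSF1 43 and genes rising without it 6. With the numbers of the Hsf1-/- HSP990 mice crossed, added after seeing the data, the difference gave 54 calls and the Hsf1-/- response 25.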
